A study of Mus musculus with 48 samples.

Results

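The TSA course followed 2 clones of one murine erythroleukemia (MEL) line through 36 h of trichostatin A, on 16 of the 48 arrays of the series. Arrays were taken by their titles, 4 for each of the times 6, 12, 24 and 36 h. Both clones come from T-3-Cl-2-0.fl, a mouse line of transformed red cell precursors: the HD clone responds strongly to inducers and the LD clone poorly. All cells of this course received 15 nM TSA, every array carried HD and LD RNA of the same hour, and no untreated cells were on these arrays. Beside it, both clones were given 1.0% DMSO (dimethyl sulfoxide) or 3.0 mM HMBA (hexamethylene bisacetamide) at the same 4 times, on 16 arrays each. The 4 arrays of a time are technical repeats of 1 pair of RNA extracts, per the labels, so that the difference between any 2 times has no replicate check and each inducibility class is represented by a single clone.

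MEL cells are red cell precursors blocked in maturation, and inducers such as DMSO, HMBA and TSA release the block: the cells then build hemoglobin, change their membrane proteins and stop dividing after a few divisions. TSA inhibits histone deacetylases, the enzymes that take acetyl groups off histone tails, and treated cells both gain and lose transcripts. The array spots are cDNA clones. The files do not pair them with genes, and 0 of 22171 clone names matched the gene table at hand, so clones are given by their names alone. Marker genes of red cell precursors or of other blood cells, and clone sequences, were not analysed here.

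Between 19612 and 20434 clones were listed on a TSA array, and 17106 had a value on all 16. The quantity reported is log2(HD/LD), normalized within each array, and the value of a time averages both dye orientations equally. Arrays 1 and 2 were taken as one orientation and arrays 3 and 4 as the other, which the dye labels do not show. HD over LD is the likely direction: the labels name HD cells as target throughout but also give them one dye throughout, which the stated dye swaps contradict. Values with arrays 3 and 4 turned are therefore given beside the main ones. Across clones, the mean of arrays 1 and 3 had an r of -0.0076 with the mean of arrays 2 and 4 at 6 h, against 0.45 at 12 h, 0.50 at 24 h and 0.71 at 36 h (18540 to 18904 clones, which share extracts and arrays). Between the orientations, arrays 1 and 2 against arrays 3 and 4, r was -0.69 at 6 h, -0.17 at 12 h, -0.36 at 24 h and 0.043 at 36 h. Before normalization it was below 0 at all 4 times, at -0.72, -0.85, -0.61 and -0.35. Within an orientation r lay between 0.48 and 0.81, with 0.57 and 0.55 at 6 h. Values without the 6 h arrays are given beside the results. Fits without them also lack a condition and part of the time span, so they cannot single out the poor agreement at 6 h.

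Taken in the likely direction, the spread of the averaged log2(HD/LD) widened over the TSA course, and more so towards HD cells. Over the 17106 clones the SD of log2(HD/LD) was 0.18 at 6 h, 0.20 at 12 h, 0.22 at 24 h and 0.32 at 36 h. From 6 to 36 h the 99th percentile of the ratio went from 0.45 to 0.94 and the 1st from -0.50 to -0.71. Opposed values of arrays 1 and 2 and arrays 3 and 4 cancel in these averages. Between the pairs r was -0.69 at 6 h and 0.043 at 36 h. How far this entered the widening was not tested. The SDs within each pair of arrays, or with arrays 3 and 4 turned, were not computed. The widening is thus one of averages, and a wider difference between the cells was not shown by it. From 6 to 36 h the ratio moved at least 2-fold towards HD cells, with the 4 arrays at 36 h all above the 4 at 6 h, for 149 clones, which is 0.871% of the clones measured. It moved as far towards LD cells for 4 clones, 0.0234%, and in either direction for 0.894%. Their limits were on size and on overlap of technical arrays, with no test: the smallest of the 149 changes was 1.01, and the largest change kept out by size alone was 0.998. A further 115 clones moved 2-fold towards HD cells and 19 towards LD cells with arrays that overlapped. Turning arrays 3 and 4 gave 94 clones towards HD cells and 54 towards LD cells. None of the 153 main clones could be among them (0 shared). All 4 of their arrays moved one way, so turning sets arrays 3 and 4 against the others. Taking 12 h in place of 6 h as the start gave 119 (0.696%) and 17 (0.0994%), with 85 clones shared, so the excess towards HD cells was also found without the 6 h arrays. Turned, that interval gave 1 and 1. At a limit of 1.5-fold 345 clones moved towards HD cells and 74 towards LD cells. Without array 3 of every condition the counts were 258 and 116, and without array 4 they were 233 and 17. Differences taken between same-numbered arrays, all 4 of one sign, gave 236 and 12.

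In the likely direction, clone H4058C04 had the largest change towards HD cells. Its log2(HD/LD) at 6 h was -1.43 and -1.06 on arrays 1 and 2 and -0.29 and 0.17 on arrays 3 and 4. At 12 h the arrays gave -0.19, -0.22, -0.14 and -0.15. At 24 h they gave 2.46 and 2.25 against 0.41 and 0.34, and at 36 h 2.93 and 2.98 against 0.77 and 1.09. All arrays at 24 and 36 h thus lay above all arrays at 6 and 12 h, but arrays 1 and 2 rose far more than arrays 3 and 4. The change from 6 to 36 h was 2.60 ± 1.86 (SD of 4 same-numbered arrays), or 6.06-fold. Split by orientation it came to 4.20 (arrays 1 and 2) and 1.00 (arrays 3 and 4), and with arrays 3 and 4 turned the change was 1.60. In intensity, the HD column rose from between 771 and 1152 at 6 h to between 4822 and 9025 at 36 h. The LD column went from 1602 and 2387 to 1006 and 778 on arrays 1 and 2, and from 1267 and 1281 to 4789 and 2553 on arrays 3 and 4. In these deposited intensities and the likely direction, HD cells thus gained signal for this clone in both dye orientations, while the orientations disagreed on LD cells. A gain was not particular to TSA. After scaling between arrays its log2 intensity rose from 6 to 36 h of DMSO from 9.75 to 11.50 in HD and from 10.12 to 11.79 in LD cells. Under HMBA it went from 10.15 to 10.95 in HD and from 10.59 to 11.01 in LD cells.

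H3079C09, at the 98.9th percentile of intensity, had the second largest change of the 149. At 6 h it was lower in HD than in LD cells on all 4 arrays, with -1.26, -1.38, -1.69 and -1.55. At 12 h the values were -0.55, -0.60, -0.04 and -0.08, at 24 h 0.99, 0.98, -0.45 and -0.41, and at 36 h 1.77, 1.76, 0.25 and 0.39. In the likely direction the clone went from an excess in LD cells to an excess in HD cells on each of the 4 arrays. Its arrays split by orientation at all 4 times, most widely at 24 and 36 h. Its change was 2.51 ± 0.66 (SD of 4 same-numbered arrays), and with 12 h as the start it was 1.36. Turning arrays 3 and 4 made it 0.57.

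Among the 4 clones past the limit towards LD cells, H4069D01 and H4006C11 changed most. H4069D01 went from 0.53, 0.39, 0.08 and 0.83 at 6 h to -0.57, -0.58, -0.43 and -1.23 at 36 h, a change of -1.16 ± 0.65. Its path was uneven, with -0.19 at 12 h and 0.10 at 24 h. H4006C11 went from 0.77, 1.79, 0.04 and -0.27 to -0.92, -0.41, -0.37 and -0.56, a change of -1.15 ± 0.94, passing through 0.16 and -0.25. Both clones were dim: by mean intensity they lay at the 0.63rd and 3.57th percentile of the measured clones. On array 1 at 6 h the LD intensity of H4069D01 was 21.7, where the 1st percentile of that channel was 21.1. The files hold no background values to test such spots against. With arrays 3 and 4 turned the change of H4069D01 was 0.13.

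**Figure D1:**
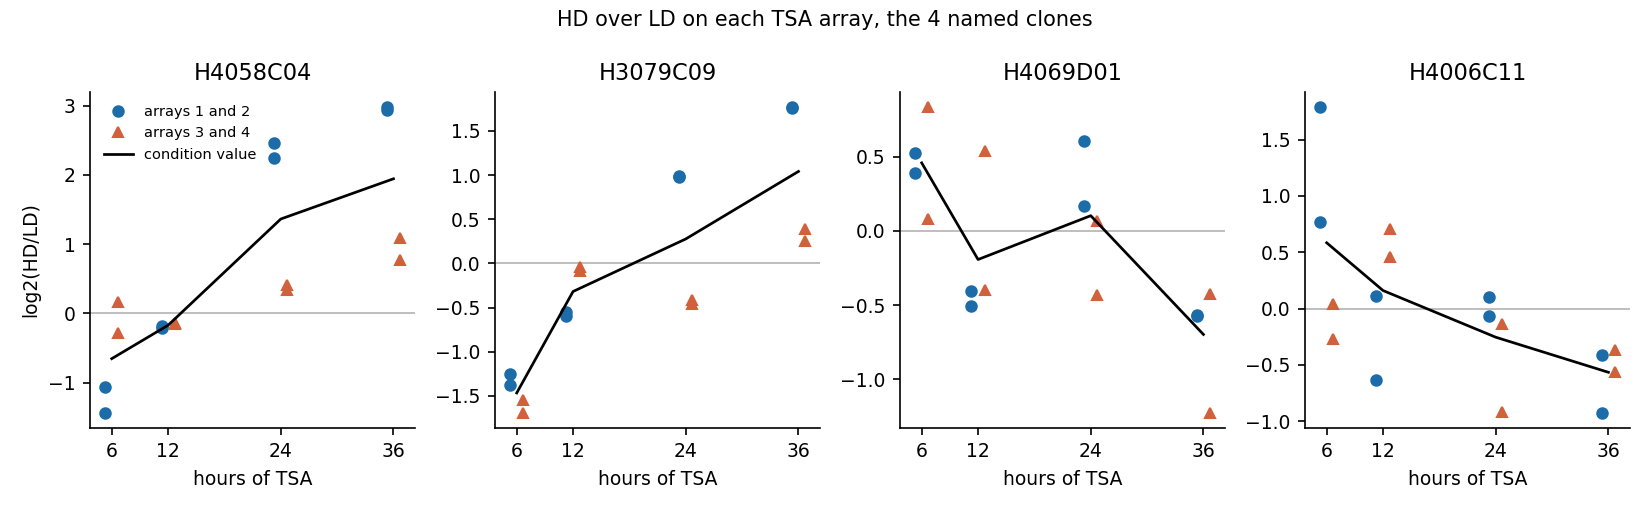
Log2(HD/LD) against hours of TSA for 4 clones, with each array as a point and the condition value as a line. Circles are arrays 1 and 2, and triangles are arrays 3 and 4, taken to be of exchanged dyes. Points are set slightly apart along the time axis. H4058C04 and H3079C09 reached 1.94 and 1.04 at 36 h, with arrays 1 and 2 above arrays 3 and 4 at 24 and 36 h, and the dim clones H4069D01 and H4006C11 went to -0.70 and -0.57.

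The movement towards HD cells was spread over the course. Most of it came after 12 h, as did most of the hours. The 149 rising clones, as the clones past the limit are called here, had a median log2 ratio of -0.24 at 6 h, -0.09 at 12 h, 0.46 at 24 h and 1.00 at 36 h. Their median steps were 0.18, 0.52 and 0.53, the first over a shorter interval than the others, so a late onset was not shown. The 6 and 36 h values chose these clones and are a description. The arrays of 12 and 24 h did not enter the choice, and between these times the ratio moved up for 144 of the 149, by a median of 0.52, against 50.4% of all measured clones and a median of 0.0023. The 4 times stood in rising order for 117 of the rising clones, or 78.5%, against 9.27% of all clones; the 6 and 36 h values of the choice enter this order. At 36 h all 149 were above 0, and 74 were at least 2-fold higher in HD cells. Of all measured clones 8725 were above 0 and 129 at least 2-fold higher. Few of all measured clones took a large single step. Towards HD cells 8 moved 2-fold without overlap from 6 to 12 h (0.0468%), 9 from 12 to 24 h (0.0526%) and 23 from 24 to 36 h (0.134%). The steps towards LD cells numbered 3 (0.0175%), 0 and 0. With arrays 3 and 4 turned the 3 steps gave 76, 2 and 2 clones higher and 47, 5 and 5 lower. Of the rising clones, whose median change over the course was 1.32, few had room for a 2-fold step. By the mean alone, overlap allowed, 16 of them moved 2-fold towards HD cells from 12 to 24 h, as did 27 of all measured clones.

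**Figure D2:**
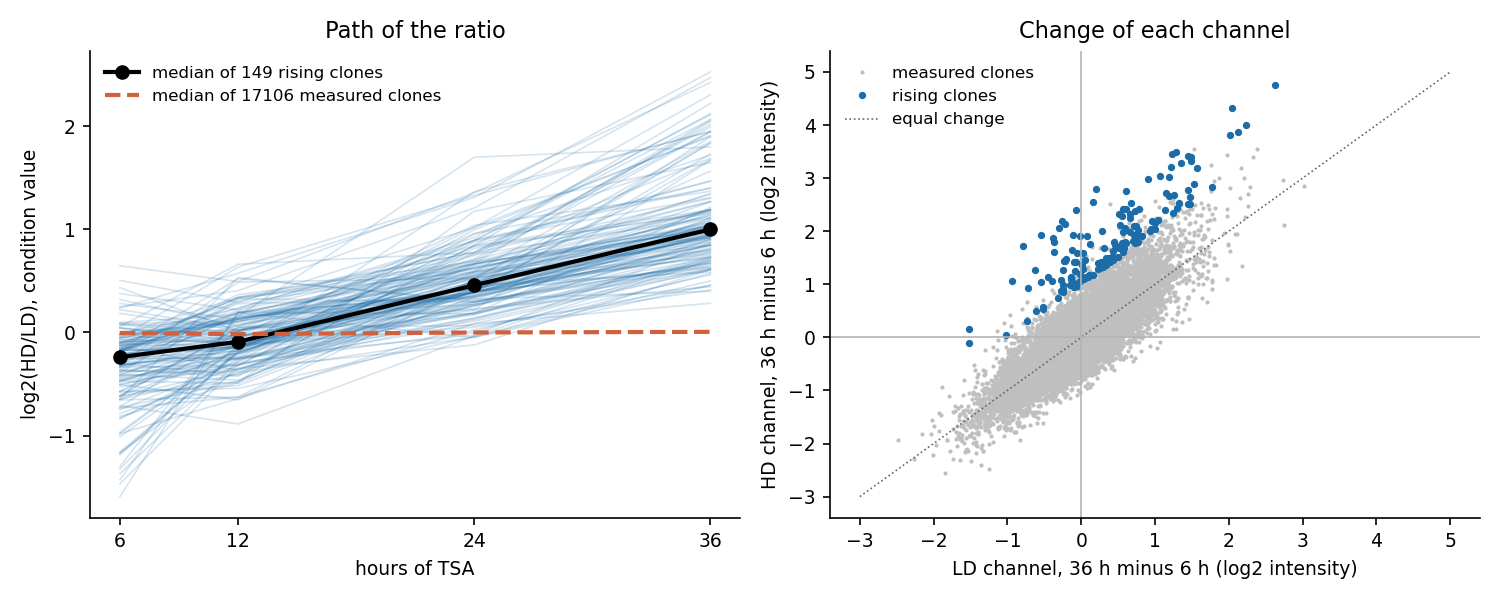
Left, log2(HD/LD) against hours of TSA for the 149 rising clones (thin lines), with their median (black, from -0.24 at 6 h to 1.00 at 36 h) and that of 17106 measured clones (dashed, near 0). Right, log2 intensity at 36 h minus 6 h in the HD channel against the LD channel for all measured clones (grey) and the rising clones (blue), which lie above the dotted line of equal change by the way they were chosen.

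The course was tested with conditions as units. For each clone a straight line in hours was fitted within each inducer to the 12 condition values, and the spread around the lines, with 6 residual degrees of freedom shared by the inducers, served as error in limma. The slope is given as the fitted change over the 30 h from 6 to 36 h, and calls are at a Benjamini-Hochberg adjusted p under 0.05 over 18494 clones. Under TSA the ratio rose for 307 clones (1.66%) and fell for 45 (0.243%). The median size of a called change was 1.14, and 233 of the rising and 16 of the falling clones reached 2-fold. The 307 had median ratios of -0.21, -0.07, 0.44 and 0.91 at the 4 times, and the 45 had 0.22, 0.12, -0.34 and -0.66. H4058C04 rose by 2.73 with a 95% confidence interval from 2.00 to 3.46 (adjusted p = 0.00278, limma). H3079C09 rose by 2.29, from 1.45 to 3.14 (adjusted p = 0.00953), and H4006C11 fell by 1.11, its interval running between -1.5 and -0.71 (adjusted p = 0.00886). H4069D01 had -0.89, from -1.56 to -0.23 (adjusted p = 0.176). None of the 3 called slopes passed with arrays 3 and 4 turned: they were 1.66 for H4058C04, 0.85 for H3079C09 and -0.38 for H4006C11 (adjusted p = 0.32, 0.524 and 0.794, limma). The call of H4006C11 was also lost in the fit blocked on replicate number (adjusted p = 0.0546) and without array 1 of every condition (adjusted p = 0.0684). The median half-width of the unadjusted 95% interval was 0.47, and changes larger than that, such as that of H4069D01, went uncalled after adjustment.

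The number of calls varied with the conditions and arrays in the fit and with the direction of the arrays. Without TSA at 36 h limma called 0 clones, with 921 at an unadjusted p under 0.05. The slopes of H4058C04, H3079C09 and H4006C11 were then 3.43, 2.70 and -1.35, no smaller than with it, in a fit of fewer conditions over a shorter span. Without 6 h it called 26, without 12 h 125 and without 24 h 197. Leaving out 1 array of every condition gave 192 to 411 calls, lowest without array 1. Turning arrays 3 and 4 left 1 call, and median centring in place of loess also left 1. A fit to single arrays, blocked on replicate number, gave 790 calls, 620 higher and 170 lower, but those units are technical. The TSA conditions fitted alone, with 2 residual degrees of freedom, gave 777 higher and 304 lower. Arrays 1 and 2 alone gave 382 calls, arrays 3 and 4 alone 9. Over all clones the change from 6 to 36 h on arrays 1 and 2 had an r of -0.07 with that on arrays 3 and 4 (17106 clones, whose 2 values share the extracts). Of 1021 clones that moved 2-fold towards HD cells on arrays 1 and 2, 57.0% moved the same way on arrays 3 and 4, against 50.4% of all clones, and 84 moved 2-fold there too. That is 8.23%, where 1.53% of all clones did. Of 262 so chosen on arrays 3 and 4, 60.3% moved the same way on arrays 1 and 2, against 51.0% of all clones, and the same 84 were 32.1%, where 5.97% of all clones did. Towards LD cells 654 and 166 clones were chosen, and 34.3% and 18.1% of them moved the same way on the other pair, against 49.6% and 49.0% of all clones. Of the clones chosen towards HD cells, a share slightly above the background thus moved the same way in both orientations. Their share past 2-fold was several times the background. Of those chosen towards LD cells, a share below the background moved the same way.

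Next, the channels were read singly, to see which line changed. Intensities were set on a common distribution between arrays, and slopes were tested per line in limma with condition as a random block (24 values, 12 residual degrees of freedom). In HD cells 530 clones rose under TSA (2.87%) and 209 fell (1.13%). In LD cells 50 rose (0.27%) and 22 fell (0.119%). The lines lay closer before adjustment, with 3548 clones in HD and 2421 in LD cells at an unadjusted p under 0.05 in limma. Of the 50, 48 were also called higher in HD cells, and all 22 falling clones of LD cells were also called lower in HD cells. The 530 clones rose by a median of 1.58 in HD cells, and their median in LD cells was 0.92, with 517 above 0. The 209 fell by a median of 1.5 in HD cells and had -1.23 in LD cells, with all 209 below 0. Of all tested clones, 49.2% were above 0 in LD cells. Both channels come from the same arrays, so an error of an array between times enters both. Whether the lines differed is the test of the ratio slope above: of the 530 it called 170 higher, and of the 209 it called 5 lower, so that for most of these clones a difference between the lines was not shown.

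The number of channel calls varied with the scaling between arrays and with the conditions in the fit. Loess within arrays alone gave 90 higher and 5 lower in HD cells, 94.7% higher against 71.7% in the main fit, and 0 calls in LD cells, where 1284 clones had an unadjusted p under 0.05. Without TSA at 36 h there were 2 calls in HD and 1 in LD cells, while the HD slope of H4058C04 was 3.27 and that of H3079C09 2.53. Without 6 h the calls numbered 46 and 8. Without 12 or 24 h LD cells had 12 and 13 calls, and HD cells had 481 without 24 h. Leaving out 1 array of every condition gave 290 to 670 calls in HD cells, lowest without array 4, and 8 to 61 in LD cells. Arrays 1 and 2 alone gave 58 calls in HD and 4 in LD cells, with 2248 and 1602 clones at an unadjusted p under 0.05 in limma. Arrays 3 and 4 alone gave 557 and 422 calls, with 3190 and 3315. The excess of HD over LD calls was thus small on arrays 3 and 4, and absent before adjustment. An offset of 50 gave 96 higher and 75 lower in LD cells, 56.1% higher against 69.4%, and median centring 24 and 6, 80% higher. With arrays 3 and 4 turned, 613 clones rose and 224 fell in HD cells, and 50 rose and 15 fell in LD cells. A fit to single arrays, blocked on replicate number, gave 915 and 214 in HD and 320 and 48 in LD cells.

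The ratio of the rising clones moved mainly through the HD channel. From 6 to 36 h their HD intensity changed by a median of 1.79 on the log2 scale and their LD intensity by 0.42, against 0.01 and 0.02 over all measured clones. That the HD change exceeds the LD change is given by their choice. The sign of either is not fixed by it but is tilted. Each channel value is built from the mean intensity and the same ratio, so the choice pushes HD up and LD down. The counts below are therefore a description. HD was at least 2-fold up for 132 of the 149, as for 1238 of the 17106 measured clones, and down for 1, as for 8386. LD was up for 100, as for 8778 of all, and by 2-fold for 31, as for 548. It was down for 49, as for 8328, and by 2-fold for 3, as for 576. At 12 h the medians since 6 h were 0.55 for HD and 0.36 for LD, and at 24 h 0.94 and 0.04. The lines thus stayed close at 12 h and parted at 24 h. Scaling moved the median of all clones in HD cells at 24 h minus 6 h from 0.05 to -0.07, and with loess alone the rising clones had 0.81 and -0.09 there and 1.74 and 0.40 at 36 h. H4058C04 changed by 2.80 in HD and 0.20 in LD cells between 6 and 36 h, and its HD slope was 2.77 (interval 1.72 to 3.82, adjusted p = 0.0032, limma). H3079C09 changed by 1.72 in HD and -0.79 in LD cells, and neither of its slopes was called (adjusted p = 0.10 for HD and 0.653 for LD cells). Its HD slope was called in the fit blocked on replicate number (adjusted p = 0.0146) and with an offset of 50 (adjusted p = 0.0445). Its LD slope was -0.68, and 0.01 on arrays 3 and 4 alone. Of the 307 clones with a called rise of the ratio, 170 were called higher in HD cells and 1 in LD cells, and 0 were called lower in either line. Over all 18494 tested clones, 530 (2.87%) and 50 (0.27%) were called higher, and 209 and 22 lower. The ratio that chose the 307 enters both channel values, so these counts are a description too.

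Against the other inducers, the TSA course held the most clones moving 2-fold towards HD cells, and also the widest spread of changes. Over all measured clones the SD of the change from 6 to 36 h was 0.36 under TSA, 0.25 under HMBA and 0.21 under DMSO. The agreement between pairs of arrays was not computed for HMBA and DMSO. How far spread and agreement of arrays enter the counts below was not tested. Under HMBA 40 clones moved 2-fold towards HD cells from 6 to 36 h without overlap (0.243%) and 13 towards LD cells (0.079%). Under DMSO the numbers were 8 (0.0461%) and 5 (0.0288%). With arrays 3 and 4 turned they were 7 and 3 under HMBA and 14 and 3 under DMSO. The fitted slope of the ratio was called for 16 clones higher (0.0865%) and 1 lower (0.00541%) under HMBA, and for 0 under DMSO, where 414 clones had an unadjusted p under 0.05 in limma. The 149 rising clones had a median change of 0.35 under HMBA, with 135 above 0, against 51.2% of all clones and a median of 0.0070. Under DMSO their median was 0.05, with 83 above 0 (55.7%), where all clones had 50.1%. At least 2-fold rises were found for 27 of them under HMBA, of 51 among all clones, and for 8 under DMSO, of 10. The HMBA and DMSO arrays carried other RNA and did not enter the choice of the clones.

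The difference between inducers was tested in the same fit, as the slope under TSA minus the mean of the DMSO and HMBA slopes. It was above 0 for 8 clones (0.0433%) and below 0 for 0 in limma, and 1974 clones had an unadjusted p under 0.05. The 8 had a median slope of 2.26 under TSA, 0.14 under HMBA and -0.10 under DMSO. These slopes chose them and are a description. One of the 8 had 0.91 under TSA against -1.48 under HMBA and -0.56 under DMSO. Of the 8, 7 were among the calls of the TSA slope, which held 352 of all 18494 tested clones. The TSA slope enters both choices. H4058C04 was one of the 8, with a difference of 2.59 (interval 1.69 to 3.49, adjusted p = 0.0431). Turned it was 1.5 (adjusted p = 0.616), and without array 1 of every condition 2.56 (adjusted p = 0.0791). Under HMBA its ratio ran from -0.45 at 6 h through 0.18 and 0.52 to -0.06 at 36 h, and under DMSO from -0.37 through 0.18 and 0.06 to -0.29. H3079C09 had a difference of 1.36 (interval 0.33 to 2.39, adjusted p = 0.29), and its ratio also crossed under HMBA, from -0.53 at 6 h to 0.95 at 36 h. The count of 8 was 146 in a fit to single arrays blocked on replicate number, and 143 higher and 17 lower with an offset of 50. It was 0 in limma with arrays 3 and 4 turned (1151 at an unadjusted p under 0.05), and 0 without any one of the TSA times (831 to 1706). It was also 0 without array 2 of every condition (1490), 1 without DMSO and 4 without HMBA. For nearly all clones called in the TSA course a difference from the other inducers was therefore not shown, and the median half-width of its interval was 0.58.

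**Figure D3:**
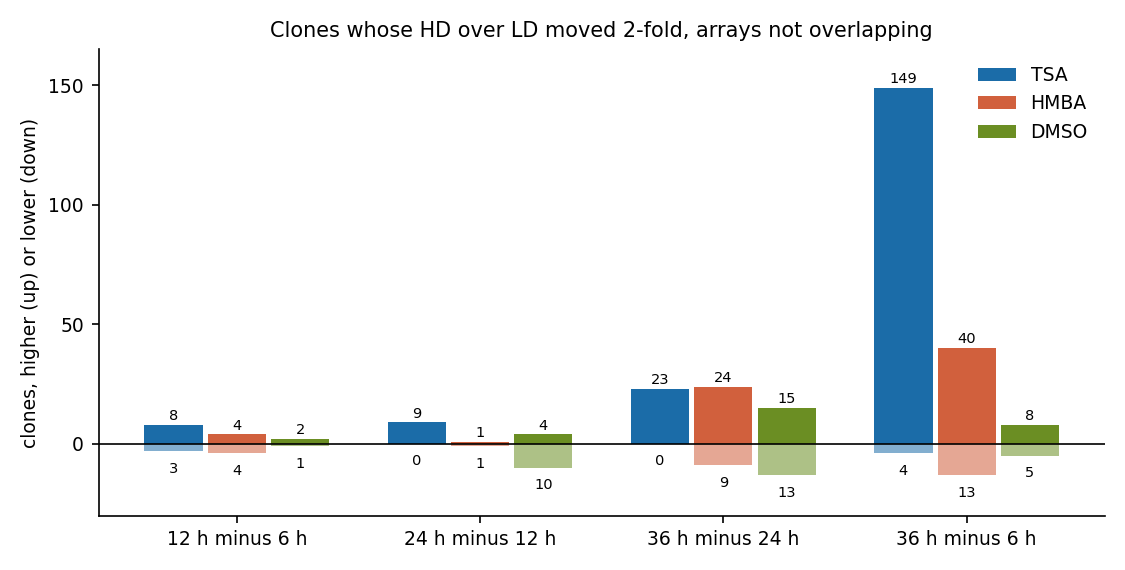
Number of clones whose log2(HD/LD) moved at least 2-fold between 2 times with arrays that did not overlap, towards HD cells (bars up) or LD cells (pale bars down), for TSA, HMBA and DMSO. From 6 to 36 h the numbers were 149 and 4 under TSA, 40 and 13 under HMBA, and 8 and 5 under DMSO.

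**Figure D4:**
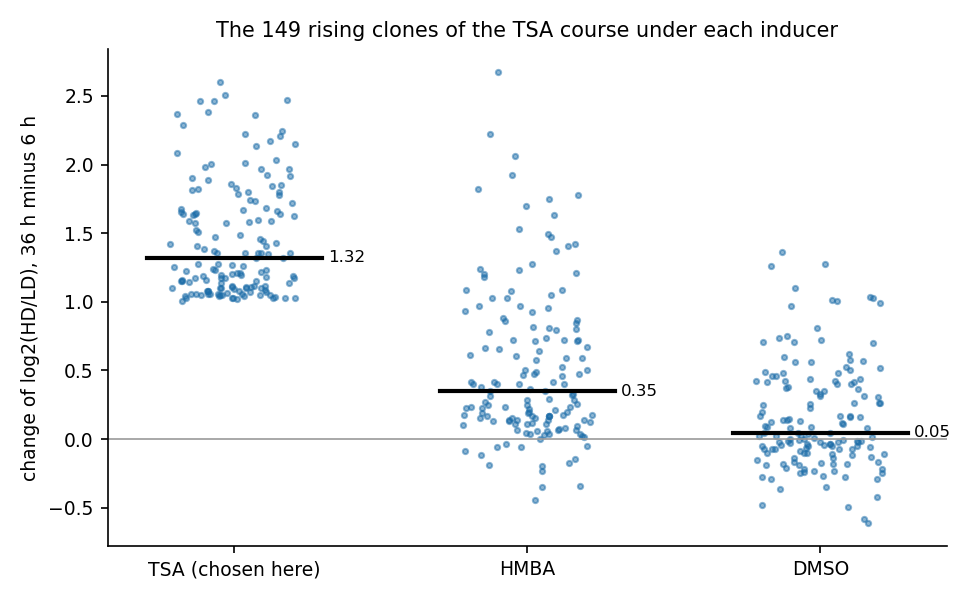
Change of log2(HD/LD) from 6 to 36 h of the 149 rising clones under TSA, where they were chosen, and under HMBA and DMSO; each point is a clone and bars are medians, 1.32, 0.35 and 0.05. Under HMBA 135 of the clones lay above 0, and under DMSO 83.

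The rising clones did not start alike. At 6 h of TSA 39 of them lay at or below -0.5, so that LD cells held the excess, 108 between -0.5 and 0.5 and 2 above. These limits were set after the values had been seen. The 39 went through median ratios of -0.73, -0.26, 0.30 and 0.70, and the 108 through -0.17, -0.04, 0.52 and 1.04. In the channels, the 39 changed by a median of 1.46 in HD and -0.14 in LD cells, with LD down for 27. The 108 changed by 1.84 and 0.57, with LD up for 86. On the 6 h arrays of the other inducers, which did not enter the grouping, the 39 had medians of -0.33 under HMBA and -0.35 under DMSO, and the 108 had -0.08 and -0.10. The lower start of the 39 was thus found with other RNA too, at a smaller size. Of 172 measured clones at or below -0.5 at 6 h, these 39 were among the rising ones. The 6 h values of TSA enter both this grouping and the choice of the clones.

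Dim clones were few among the rising ones: their median mean log2 intensity was 9.73 against 9.25, with 15 among the dimmest 25% of clones and 32 among the brightest 25%. By array part, 62 came from part 1 and 87 from part 2, which is 41.6% from part 1 against 55.9% of all measured clones. By name they carried 88 of 238 plate numbers, with at most 6 on a plate. Of the 426 measured wells that adjoined theirs, counted once for each rising clone, 30 held another, or 7.04% against 0.871% of all clones. The 384 adjoining clones that were not among them had a median change of 0.07. The part of well position in these changes was not tested.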

How the data were processed

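Total RNA of HD and LD cells was hybridised to 2-colour cDNA arrays of 2 parts. Per the file headers, the deposited files give an intensity for the control (LD) and the target (HD) RNA of each clone, with no background or flag column and every value above 0. How the authors chose the listed clones is not stated there. The authors also deposited log2 ratios, whose TSA columns had r between 0.988 and 0.999 with the ratios computed here, slopes between 0.976 and 0.998 and medians between -0.040 and 0.011; their scale is thus log2 and their direction target over control, their normalization is unknown, and they served as an alternative.

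Log2(HD/LD) was normalized by loess (span 0.3) in each part of each array. Changes between times required values on all 16 TSA arrays (17106 clones). The slope fits used limma 3.58.1 (R 4.3.3) on condition values, for the 18494 clones with a value in both pairs of arrays of the 12 conditions. For channels, mean log2 intensities were quantile-normalized between arrays. Adjusted p-values are two-sided Benjamini-Hochberg. Scripts were tested on simulated arrays. The number of arrays limits precision. P-values measure the spread of conditions around straight lines, not that of cultures.

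Same-numbered arrays of different TSA times moved together about the mean of their condition (r from 0.33 to 0.62), while array 1 minus array 2 had a median r of 0.0096 between times. The numbers thus pair arrays by dye orientation. Fits blocked on replicate number are given beside the counts they moved.

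Named clones are the 2 with the largest change in each direction among clones at least 2-fold changed without overlap of arrays, since no gene names were at hand. The samples and the clones' grouping were chosen with earlier results of these data known.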

Additional observations from a re-analysis of the deposited data

Results flagged for a closer look

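In limma, HD and LD cells changed differently with time under TSA for 352 clones, the ratio slope being itself the test of that difference. The slope under TSA differed from the mean of the DMSO and HMBA slopes for 8 clones, tested as a difference of slopes in limma. Among single arrays of the 4 named clones, 1 of 16 groups of 4 arrays held a value apart from the rest: under TSA for 12 h, H4069D01 had 0.54 on array 3 and from -0.51 to -0.40 on the other arrays. Chance flags about 1 in 20 such groups, which is 0.8 of the 16.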

How the results depend on the processing

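Counts are clones called, in the order change from 6 to 36 h (153), ratio slope (352), slope difference from DMSO and HMBA (8), HD slope (739) and LD slope (72). Leaving out 1 array number of every condition gave 183 to 374, 192 to 411, 0 to 10, 290 to 670 and 8 to 61. The authors' deposited log2 ratios gave 146, 354 and 8 for the ratio results, close to the main counts.

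The count of changes was 419 at 1.5-fold, 87 with 2-fold on the mean of each pair of arrays, 1733 on arrays 1 and 2 alone and 475 on arrays 3 and 4 alone. Median centring gave 1 for the ratio slope, 0 for the difference and 30 for LD cells. An offset of 50 gave 770, 160, 1166 and 171 for the 4 slope results, and the log2 of hours 210 for the ratio slope, 0 for the difference and 4 for LD cells. With arrays 3 and 4 turned the ratio slope had 1 call and the difference 0, and H4069D01 changed by 0.13 in place of -1.16. The difference had 3 calls with a loess span of 0.6, 18 without the dimmest 25% and 30 with values on all arrays. Loess alone gave 95 in HD and 0 in LD cells.

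Without TSA at 6 h the 4 slope results were 26, 0, 46 and 8, without 12 h 125, 0, 737 and 12, without 24 h 197, 0, 481 and 13, and without 36 h 0, 0, 2 and 1. The TSA conditions alone gave 1081 for the ratio slope and 6 for LD cells. Without DMSO the ratio slope had 542, the difference 1 and LD cells 22. Without HMBA the difference had 4, HD cells 477 and LD cells 38. Arrays 1 and 2 alone, added after the data were seen, gave 47 for the difference, 58 in HD and 4 in LD cells. Arrays 3 and 4 alone, added likewise, gave 9 for the ratio slope, 0 for the difference, 557 in HD and 422 in LD cells. Blocked on replicate number, the 5 results gave 248, 790, 146, 1129 and 368. Apart from fewer conditions or arrays in a fit, the cause of these differences was not tested. Dim clones near the channel floor and the single extract pair of each time limit all results.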
